A study of Homo sapiens with 66 samples.

Results

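RANGAP1 was depleted for 2 h from DLD-1, an established line of human colorectal cancer cells, and RNA was measured by sequencing. The comparison takes 6 of the 66 libraries of the series: 3 from untreated RANGAP1-AID cells and 3 from the same cells after 2 h in 1 mM auxin. In these cells RANGAP1 carries NeonGreen, a green fluorescent protein, and an auxin-inducible degron (AID), a tag through which auxin sends the protein to the proteasome, so that both groups share the tagged gene and differ in the auxin. The cells also make TIR1, the plant auxin receptor, from the RCC1 locus. The members were taken from the labels alone (genotype GAP1-NeonGreen-AID, with the agent and the time). The other libraries used are RANGAP1-AID cells after 8 h of auxin, NUP153-AID, AID-NXF1 and AID-TPR cells after 2 h, NUP50-AID and AID-GANP cells after 3 h, each with its own untreated cells, AID-TPR cells given Actinomycin D (ActD) for 2 h, and the parental DLD-1 line, without a degron, labelled untreated and labelled auxin for 2 h. All groups hold 3 libraries, described in the methods as independent biological replicates. How many clones each line comes from is not given in the sources used here.

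RANGAP1 is the GTPase-activating protein of Ran. It sits at the cytoplasmic face of the nuclear pore, for the most part joined to SUMO and bound to RANBP2, and makes Ran hydrolyse GTP as it leaves the nucleus, while the exchange factor RCC1 on chromatin loads Ran with GTP inside. The resulting gradient tells importins where to release cargo and exportins where to pick it up, so its loss disturbs the traffic of proteins and of many RNAs in both directions. Auxin removes the protein and is not aimed at its mRNA, so that RANGAP1 counts cannot check the labels.

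The 6 libraries held between 28208309 and 38148956 reads counted on genes, of which at least 99.79% fell on the 17812 genes tested. Libraries with the same replicate number deviated together and the number paired them, so values with that number as a term in the fit (the replicate block) are given where they change a call. Of the 8 markers of colon epithelium, 7 had at least 282 reads in every library, among them EPCAM, CDH1, KRT8 and CDX2, while CDX1 had at most 2 reads. Fibroblast, immune and endothelial markers were near 0: their summed levels were between 0.201 and 3.47 CPM (counts scaled to a common library total), against 5844 to 6415 CPM for the epithelial list, and LUM and LYZ had no read. One result below depends on how the parental libraries are labelled. The aryl hydrocarbon receptor genes, which were higher after auxin in RANGAP1-AID cells, were lower in the DLD-1 libraries labelled auxin, and those libraries are therefore named by their labels throughout, with the cause not tested. The RANGAP1-AID, NUP153-AID and NUP50-AID libraries hold counts on mitochondrial genes, as do the AID-TPR libraries labelled old or given ActD, while the AID-NXF1, AID-GANP, DLD-1 and other AID-TPR libraries used hold none, so that fold changes within a line and not levels were set against each other.

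Few genes changed within 2 h. A gene was called when edgeR's quasi-likelihood test gave it a Benjamini-Hochberg adjusted p under 0.05, when its fold was at least 1.3 or at most 0.7 and when it was not also called in the DLD-1 libraries. Before the DLD-1 calls were taken out 105 genes passed, and 94 remained when the DLD-1 treatments were named the other way round. DLD-1 calls in either direction are taken out, so the naming enters only through the unequal fold limits. The 94 therefore say little about the naming. By the rule 97 genes were called, 78 higher and 19 lower, which is 0.545% of the genes tested (0.438% higher and 0.107% lower). In all 97 the auxin and untreated values did not overlap, which also held for 2156 of all tested genes (12.1%). The rises had a median log2 fold change of 0.86 and reached 3.09, and 28 of them were over 2-fold. The falls had a median of -0.88 and reached -1.76, with 6 over 2-fold. With the replicate block the count was 427, of which 251 were higher and 176 lower, and all 97 genes were among those that passed it. The count was smaller without untreated replicate 2 (33) or auxin replicate 2 (35), and without untreated replicate 1 (53). In these fits 4, 0 and 3 genes were called lower. Without auxin replicate 1, auxin replicate 3 or untreated replicate 3 there were 2, 13 and 10.

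**Figure D1:**
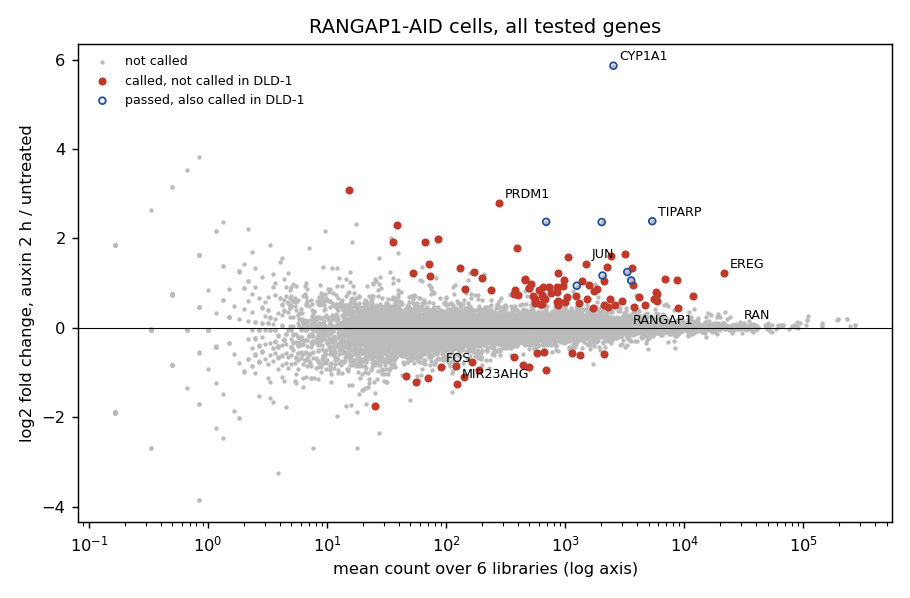
Log2 fold change after 2 h of auxin (y axis) against the mean count over 6 libraries (x axis, log scale) for each of 17812 tested genes in RANGAP1-AID cells. The 97 called genes are red, and genes that passed the test but were also called in DLD-1 cells are open blue circles. The rises outnumber the falls, and CYP1A1 has the highest log2 fold change, 5.86.

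No gene of the Ran system itself passed the test. RANGAP1 mRNA was at 97.8, 104 and 109 CPM in the untreated libraries and at 96.0, 99.2 and 108 CPM after auxin, so that the groups overlap and the log2 fold change was -0.04 ± 0.08 (SE, n = 3 against 3). RAN, the GTPase, differed by 0.07 ± 0.10 and RCC1 by -0.02 ± 0.07 on the log2 scale. None of the 8 genes of the Ran cycle was called, nor any of 24 importins and exportins, 30 nucleoporins or 16 genes of the SUMO pathway, also with the replicate block. Only 0.545% of all tested genes were called, so that the absence of a call from lists of this size says little. The median log2 fold changes of these lists were 0.01, 0.03, 0.02 and -0.002, beside 0.002 over all tested genes. NUTF2, which carries Ran-GDP into the nucleus, differed by 0.08 with SE 0.11. In the transport receptor list the smallest p-values belonged to KPNA5, an importin alpha (0.36 ± 0.18), and TNPO2, a transportin (0.14 ± 0.08). In the pore list they belonged to NUP58, of the central channel (0.19 ± 0.09), and POM121, a membrane-anchored nucleoporin (-0.17 ± 0.08), and in the SUMO list to SENP5, a SUMO protease (0.17 ± 0.08), and PIAS1, a SUMO ligase (-0.16 ± 0.10), all with adjusted p-values over 0.05.

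Targets of the aryl hydrocarbon receptor (AHR), a ligand-activated transcription factor that binds the xenobiotic response element, held the largest change of the data, that of CYP1A1. CYP1A1, a monooxygenase and the classical AHR target, went from 3.30, 2.34 and 2.12 CPM to 143, 140 and 166 CPM, a log2 fold change of 5.86 ± 0.16 (adjusted p = 1.37e-07). TIPARP, an ADP-ribosyltransferase that represses AHR, went from 51.5, 55.2 and 50.7 CPM to 263, 286 and 273 CPM (2.39 ± 0.08, adjusted p = 5.78e-07). CYP1B1, a second monooxygenase of the family, went from 18.2, 19 and 21.8 CPM to 79.7, 99.6 and 125 CPM (2.37 ± 0.16, adjusted p = 9.06e-05). All auxin libraries lay above all untreated libraries for each of the genes. These 3 also passed in DLD-1 cells, in the opposite direction as labelled (log2 fold changes of -3.84, -1.77 and -1.14), and so are not among the 97. Their rise was not particular to RANGAP1 loss. After NUP153, NUP50, TPR, NXF1 and GANP loss, CYP1A1 had log2 fold changes of 4.64, 5.71, 1.88, 2.61 and 2.17. In the same order TIPARP was at 1.71, 1.23, 1.33, 0.75 and 2.00, and CYP1B1 at 1.64, 1.91, 0.67, 0.23 and 0.53. Only CYP1A2, with a mean of 15.2 reads per library, was called from this list of 7 (log2 fold change 3.09 ± 0.46, adjusted p = 0.0155). It went from 0.139, 0.136 and 0.0265 CPM to 0.788, 1.04 and 0.688 CPM. The filter asks for a CPM above 1 in at least 4 libraries, so libraries outside these 6 brought it into the test. Its call is therefore no support for the list, and 0.438% of all tested genes were called higher. AHRR, the AHR repressor, was at 0.42 ± 0.08 (adjusted p = 0.0746) and passed with the replicate block.

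To show the start sites of the genes described here and in the next paragraphs, the bases before the RefSeq start (GRCh38.p14) of 6 of them are given from 5′ to 3′ on the gene's strand, with bases that GENCODE counts as exon of the gene left out. Capitals mark matches, on either strand, to GCGTG, the core of the xenobiotic response element, and to TGACNTCA, the element bound by AP-1 and ATF dimers. The CYP1A1 window is chr15:74725537-74725778 (minus strand), the TIPARP window chr3:156674340-156674589 (plus), the PRDM1 window chr6:106086086-106086319 (plus), the ATF3 window chr1:212565157-212565333 (plus), the JUN window chr1:58784049-58784297 (minus) and the FOS window chr14:75278578-75278825 (plus).
CYP1A1: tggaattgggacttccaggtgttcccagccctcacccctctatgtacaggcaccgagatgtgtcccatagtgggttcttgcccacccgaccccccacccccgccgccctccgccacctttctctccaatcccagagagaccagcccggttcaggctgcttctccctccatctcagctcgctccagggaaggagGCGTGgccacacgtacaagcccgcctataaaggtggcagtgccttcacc
TIPARP: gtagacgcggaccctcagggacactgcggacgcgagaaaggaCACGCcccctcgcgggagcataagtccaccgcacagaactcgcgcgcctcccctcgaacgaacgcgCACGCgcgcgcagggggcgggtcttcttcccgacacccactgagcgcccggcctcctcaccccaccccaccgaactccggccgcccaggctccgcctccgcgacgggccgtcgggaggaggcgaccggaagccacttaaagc
PRDM1: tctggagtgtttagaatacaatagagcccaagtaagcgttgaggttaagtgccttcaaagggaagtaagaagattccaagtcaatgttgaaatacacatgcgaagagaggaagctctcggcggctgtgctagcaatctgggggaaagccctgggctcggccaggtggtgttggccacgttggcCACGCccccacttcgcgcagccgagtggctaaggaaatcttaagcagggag
ATF3: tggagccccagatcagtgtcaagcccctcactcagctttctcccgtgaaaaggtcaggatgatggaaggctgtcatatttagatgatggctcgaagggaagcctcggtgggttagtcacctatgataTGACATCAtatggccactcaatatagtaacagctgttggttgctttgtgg
JUN: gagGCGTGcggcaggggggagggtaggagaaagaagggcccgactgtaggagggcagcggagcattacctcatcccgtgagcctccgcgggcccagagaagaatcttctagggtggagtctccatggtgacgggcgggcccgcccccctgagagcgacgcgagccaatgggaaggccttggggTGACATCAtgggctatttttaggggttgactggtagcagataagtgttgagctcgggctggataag
FOS: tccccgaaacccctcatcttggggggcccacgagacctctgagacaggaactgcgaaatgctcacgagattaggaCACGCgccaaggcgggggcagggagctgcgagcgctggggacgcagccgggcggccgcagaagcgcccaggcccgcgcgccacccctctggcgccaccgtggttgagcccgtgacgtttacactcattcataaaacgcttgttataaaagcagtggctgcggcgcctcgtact

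The letters of these motifs are common, and a match is a description only. GCGTG occurred in the 250 bases before the start in 31.9% of 27305 RefSeq promoters, in 26 of the 60 promoters found for the genes called higher (43.3%) and in 4 of the 10 found for the genes called lower. TGACNTCA occurred in 7.09% of all promoters and in 8 of the 60 (13.3%). In ATF3 and JUN it starts 123 and 67 bases before the RefSeq start. The related letters TGANTCA, the AP-1 site, which can overlap it only in part, occurred in 6.6% of all promoters, in 5 of the 60 (8.33%) and in none of the 6 windows shown.

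Among immediate early genes, which are switched on by signals without new protein synthesis, members moved in both directions. Of 18 measured, 3 were called higher and 2 lower, beside 0.438% and 0.107% of all tested genes. ATF3, a stress-induced bZIP repressor, went from 4.69, 4.85 and 6.46 CPM to 22.8, 16.5 and 16.2 CPM (log2 fold change 1.79 ± 0.17, adjusted p = 0.00147). JUN, the AP-1 subunit, went from 17.5, 23.0 and 31.8 CPM to 69.8, 55.5 and 71.0 CPM (1.44 ± 0.19, adjusted p = 0.00835). FOSL2, another AP-1 subunit, rose by 0.47 ± 0.08. FOS, the partner of JUN in AP-1, went the other way, from 3.27, 3.73 and 3.79 CPM to 2.21, 1.84 and 1.8 CPM (-0.89 ± 0.16, adjusted p = 0.0428), and IER5 fell by 0.53 on the log2 scale (SE 0.09). EGR1, a zinc finger factor of the same class, was spread over 11.3 to 24.3 CPM in the untreated and 11 to 20.6 CPM in the auxin libraries and did not pass (-0.03 ± 0.28). The list had a median of 0.35. With the replicate block 8 members passed higher and the same 2 lower. Among those added were KLF6 (0.98 ± 0.21), a zinc finger factor, and IER3 (1.21 ± 0.31). Over all 17812 tested genes that block called 251 higher and 176 lower.

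**Figure D2:**
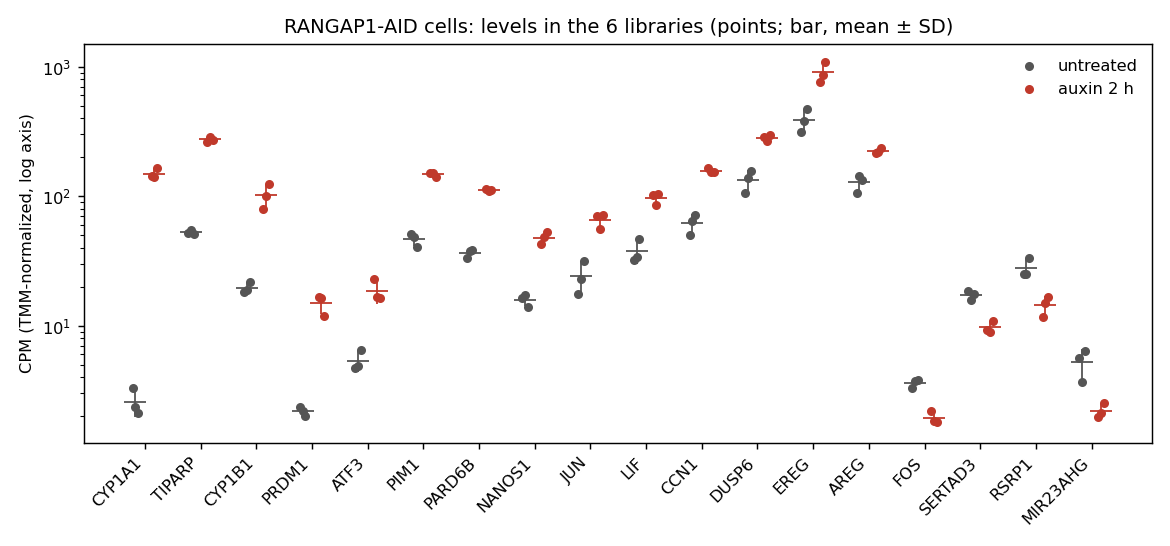
Levels of 18 genes in RANGAP1-AID cells in CPM (y axis, log scale), with 1 point per library, untreated in grey and auxin 2 h in red, and the mean and SD over 3 libraries. The groups do not overlap for any gene shown, which also holds for every called gene and for 12.1% of all tested genes. The last 4 genes are lower after auxin.

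Of 14 genes that limit signalling through the ERK MAP kinase cascade 2 were called higher. Of the 5 EGFR ligands measured, which can start it, 2 were, beside 0.438% of all tested genes. DUSP6, the cytoplasmic ERK phosphatase, went from 107, 138 and 157 CPM to 288, 267 and 294 CPM (log2 fold change 1.08 ± 0.13, adjusted p = 0.00492), and SPRY1, a Sprouty inhibitor of receptor signalling, from 14.6, 15.3 and 16.2 CPM to 24.7, 23.9 and 25.3 CPM (0.68 ± 0.09). These were the 2 of 14 members of the MAP kinase feedback list called, and with the replicate block DUSP4 and DUSP8 were added. Of 5 EGFR ligands measured, EREG, epiregulin, rose from 312, 381 and 471 CPM to 765, 856 and 1085 CPM (1.22 ± 0.17, adjusted p = 0.0099) and AREG, amphiregulin, from 107, 142 and 134 CPM to 216, 220 and 237 CPM (0.81 ± 0.11). The libraries differ within each group for EREG, but the lowest auxin library stands above the highest untreated one. TGFA (0.26 ± 0.11) and HBEGF (0.36 ± 0.17) were not called. ERRFI1, which binds and inhibits EGFR, also rose (1.06 ± 0.09).

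Targets of YAP and TEAD, the transcription factors that the Hippo pathway restrains, had a median log2 fold change of 0.48 over 10 members. Of these 4 were called higher, beside 0.438% of all tested genes. CCN1, a matricellular protein, went from 50.4, 63.7 and 71.9 CPM to 164, 154 and 154 CPM (1.34 ± 0.12, adjusted p = 0.000942). AMOTL2, an angiomotin that holds YAP in the cytoplasm, rose by 0.61 ± 0.09, F3, tissue factor, by 0.52 ± 0.10 and AJUBA, a LIM protein that inhibits LATS kinases, by 0.45 ± 0.07. ANKRD1 (0.73 ± 0.18) and LATS2 (0.42 ± 0.13) did not pass, and both did with the replicate block, in which 7 of the 10 passed. That block called 251 of all 17812 tested genes higher. The 10 members of the TGF-beta and BMP feedback list had a median of 0.01, with 6 above 0 and values down to -0.60. ID2, an inhibitor of bHLH factors (0.76 ± 0.09), and SMAD7, the inhibitory SMAD (0.64 ± 0.08), were called higher. BAMBI and SMAD6, which hold the same pathways back, did not pass.

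**Figure D3:**
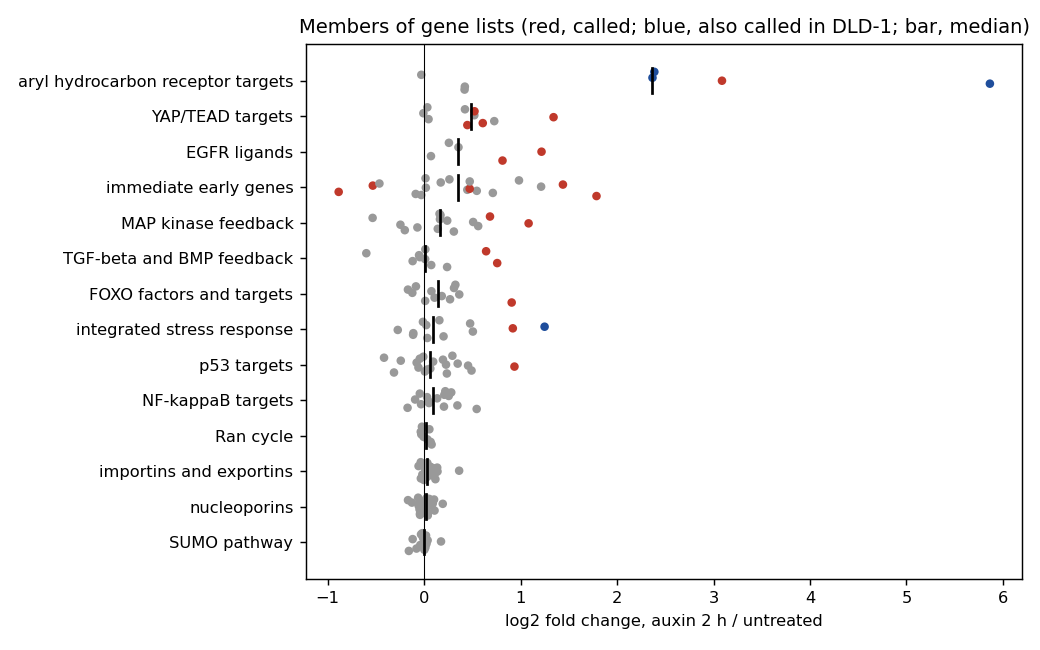
Log2 fold changes after 2 h of auxin (x axis) of the tested members of 14 gene lists (y axis), 1 point per gene, with the list median as a black bar. Red points are called genes and blue points passed the test but were also called in DLD-1 cells. The Ran cycle, transport receptor, pore and SUMO lists stay close to 0.

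By the rule for named genes, the largest rises with at least 50 reads on average lay outside these lists in most cases. PRDM1, also called Blimp-1, a transcriptional repressor of lymphocyte and epithelial differentiation, went from 2.33, 2.17 and 2.01 CPM to 16.6, 16.4 and 11.9 CPM (log2 fold change 2.78 ± 0.16, adjusted p = 4.92e-05). PIM1, a serine/threonine kinase, went from 51.3, 48.4 and 40.7 CPM to 151, 151 and 140 CPM (1.66 ± 0.10). PARD6B, a component of the polarity complex with atypical PKC, went from 33.3, 37.9 and 38.1 CPM to 113, 109 and 112 CPM (1.61 ± 0.08). The libraries of each group lie close together for the last 2 genes and far from those of the other group.

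NANOS1, an RNA-binding repressor of translation, rose by 1.59 ± 0.11 on the log2 scale, and LIF, a cytokine of the interleukin 6 family, by 1.37 ± 0.14. RTP3, a receptor-transporting protein, rose by 1.98 ± 0.19, LEKR1 by 1.42 ± 0.18 and OAS2, an interferon-induced oligoadenylate synthetase, by 1.34 ± 0.21. DMRT2, a doublesex-related factor, rose by 1.25 ± 0.22, IL24, a cytokine, by 1.24 ± 0.21 and ADGRF1, an adhesion G protein-coupled receptor, by 1.22 ± 0.14. ENSG00000234424, an unprocessed pseudogene, rose by 1.93 ± 0.33, from 0.939, 1.19 and 0.477 CPM to 3.25, 4.29 and 2.25 CPM. As a pseudogene whose exons share bases with 2 other genes, it can hold reads of its copies, and its value is uncertain.

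Other members of fixed lists were called higher 1 at a time, beside 0.438% of all tested genes. GADD45A, a p53 target and DNA damage-inducible stress sensor, rose by 0.94 ± 0.11 as the single call among 19 p53 targets, whose median was 0.06, and with the replicate block CDKN1A, the cell cycle inhibitor p21 (0.49 ± 0.17), and GDF15 passed as well. Outside that list PMAIP1, the BH3-only protein NOXA, rose by 0.79 ± 0.11. DDIT4, an inhibitor of mTORC1, rose by 0.92 ± 0.11, 1 of 12 genes of the integrated stress response, to which the replicate block added CHAC1 and SLC7A11. PPP1R15A, the phosphatase subunit that reverses phosphorylation of eIF2-alpha, passed (1.25 ± 0.12) but was also called in DLD-1 cells. BCL6, a repressor listed with the FOXO targets, rose by 0.91 ± 0.09 (1 of 12). RND3, an atypical small GTPase, rose by 0.88 ± 0.10 (1 of 12 in a small GTPase list). ALDH1A3, which makes retinoic acid, rose by 0.89 ± 0.09 (1 of 9 retinoid genes). SLC2A1, the glucose transporter GLUT1, rose by 0.70 ± 0.10 (1 of 9 hypoxia genes), and CDX2, the intestinal homeobox factor among the epithelial markers, by 0.65 ± 0.09.

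With 0.545% of all tested genes called, the remaining lists held no called member. They were NF-kappaB targets (16 measured, median log2 fold change 0.09), heat shock proteins (13, 0.02), Wnt targets (11, 0.04), Notch targets and ligands (10, -0.05), the circadian clock (14, 0.03), cholesterol synthesis and SREBP2 targets (13, -0.09), S phase (13, 0.08), mitosis (13, -0.06) and RNA decay regulators (10, -0.07). The fibroblast, immune and endothelial marker lists had 1 tested member each, none called. The genes with the smallest p-values include BIRC3, an inhibitor of apoptosis (0.54 ± 0.18), HES1, a Notch-induced repressor (0.68 ± 0.14), and RRM2 of S phase and AURKA of mitosis. BIRC3 and HES1 passed with the replicate block. For S phase all 13 members had values above 0, and for mitosis 11 of 13 had values of 0 or below. Of the genes named in the study, FOS and EGR1 are described above and the others were not called. GDF15, a stress-induced cytokine, was at 0.46 ± 0.16, FJX1 at 0.26 ± 0.08, ASCL2, a Wnt-dependent factor of intestinal stem cells, at -0.34 ± 0.12, and HOXA13 at -0.37 ± 0.11.

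The number of falling genes depended on single libraries, with 0 to 13 called lower when 1 was left out. With the replicate block 176 were called lower, and their kinds are not described here. The kinds below are those of the 19 found with all libraries and without that block. Of them 8 code for proteins, 7 are long non-coding RNAs, 1 (IGFL1P1, -1.76 and the deepest fall) is a pseudogene and 3 are small nucleolar RNAs (snoRNAs), which guide the modification of ribosomal RNA, whereas 70 of the 78 rising genes code for proteins (89.7%, beside 73.8% of all tested genes). MIR23AHG, the host of the miR-23a cluster, went from 5.67, 3.70 and 6.38 CPM to 1.95, 2.11 and 2.54 CPM (log2 fold change -1.25 ± 0.21, adjusted p = 0.0371). SNHG12, a snoRNA host gene, went from 83.2, 79.4 and 71.2 CPM to 51.8, 51.6 and 53.2 CPM (-0.58 ± 0.08), and SNORD99, which lies in it, fell by 1.12 with SE 0.17. SNORD14D, within HSPA8, fell by 0.85 (SE 0.14), while HSPA8 itself, a heat shock cognate protein, was at 0.10 ± 0.10. The SNORD22 gene ENSG00000278527, within SNHG1, fell by 0.76, while SNHG1 was at -0.47 ± 0.11 and did not pass. Over all 211 snoRNA genes tested the median log2 fold change was -0.22, with 140 below 0 and none called higher. Of all tested genes 50.6% were above 0 and 0.438% were called higher. Some other classes also lay below 0, as 49 microRNA genes (median -0.20, 33 below 0) and 542 processed pseudogenes (-0.08, 329 below 0). Small nuclear RNA (0.05) and scaRNA genes (0.03) lay above it. The libraries were made for total RNA and hold short RNAs only in part, and reads on a snoRNA cannot be told from reads on its host's transcript.

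Among coding genes, SERTAD3, a regulator of E2F activity, went from 18.5, 15.7 and 17.7 CPM to 9.20, 8.94 and 10.9 CPM (log2 fold change -0.83 ± 0.12, adjusted p = 0.011). RSRP1, an arginine- and serine-rich protein, went from 24.9, 25 and 33.1 CPM to 11.6, 14.9 and 16.6 CPM (-0.94 ± 0.15), and RAB26, a small GTPase of vesicle traffic, from 20.3, 15.3 and 22.6 CPM to 9.33, 10.3 and 12.1 CPM (-0.88 ± 0.16). No auxin library reached the lowest untreated one in any of these. The long non-coding genes ENSG00000238279 (-1.20 ± 0.21), ENSG00000272141 (-1.09 ± 0.17) and ENSG00000266651 (-0.93 ± 0.14) also fell.

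Several calls lie beside or over each other. Among the genes that passed before the DLD-1 calls were removed, 19 lay within 100 kb of another one, in 15 pairs. One stretch of chromosome 15 holds CLK3, EDC3, CYP1A1, CYP1A2 and CSK, with log2 fold changes of 1.06, 1.17, 5.86, 3.09 and 0.44. EDC3, a decapping factor, starts 23250 bases from CYP1A1 on the same strand, and CSK, a kinase that restrains SRC, lies 56544 bases from it on the other. EREG and AREG are 56387 bases apart. Of the 97 genes, 37 share exonic bases with another gene of the annotation. DUSP6 and ENSG00000274021 share 1105 bases (1.08 and 1.05), ALDH1A3 and ALDH1A3-AS1 share 1715 (0.89 and 0.85) and LIF and LIF-AS2 share 83 (1.37 and 1.12). Whether strand was used in counting is not given in the sources used here, so that the antisense member of such a pair is uncertain and the pair may count once.

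RNA levels after 2 h of ActD, which stops transcription, were set against those of the untreated AID-TPR libraries labelled old. The value is the log2 ratio of mean CPM with 0.1 added. The 78 rising genes had a median ratio of -0.53 and 55 of them were below the median of all tested genes, which was -0.09. The 19 falling genes had a median of -1.07, with 14 below. JUN (0.79), ATF3 (0.72) and EREG (0.83) among the rises and FOS (0.53) among the falls went the other way. They lay above the upper quartile of all tested genes, 0.13. SNORD14D, the SNORD22 gene ENSG00000278527 and, among the rises, ENSG00000269926 had a ratio of exactly 0. A gene without reads takes that value, so it says nothing about them. CPM are relative to the RNA that remains, so a ratio is a rank among genes and neither a half-life nor a measure of turnover. Coding genes that rose had a median of 6 exons and those that fell 4.5, beside 9 over all tested coding genes. JUN, with its single exon, is 1 of 2 such genes among the 70 coding rises (2.86%), and IER5 is 1 of 2 among the 8 coding falls. Such genes make up 2.19% of all tested coding genes.

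The parental DLD-1 cells carry no degron and address the effect of auxin itself. As labelled, 71 of the 78 rising genes were lower in the libraries labelled auxin, with a median log2 fold change of -0.32, and 18 of the 19 falling genes were at or above 0, with a median of 0.09. The difference between the log2 fold changes of both lines passed for 159 genes (0.893% of those tested), 138 of them higher in RANGAP1-AID cells, and for 67 of the 78 rising and 12 of the 19 falling genes. The count was 102 without DLD-1 untreated replicate 2 and 1163 with the replicate block. Genes called in DLD-1 cells had been taken out of the rising and falling genes. These were also chosen from the same RANGAP1-AID libraries, which favours large differences. As labelled, the widest were CYP1A1 (9.72 ± 0.23), TIPARP (4.16 ± 0.12) and PRDM1 (4.04 ± 0.40), and on the lower side IER5L (-1.37 ± 0.28), MIR23AHG (-1.31 ± 0.24) and ENSG00000272141 (-1.27).

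With the DLD-1 treatments named the other way round, an alternative chosen after seeing the data, 13 genes differed instead of 159. They were CYP1A1 (2.03), PIM1 (1.69), RTP3 (1.42), JUN (1.39), CYP1B1-AS1 (1.39), CYP1B1 (1.23), NANOS1 (1.20), PARD6B (1.08), TNFRSF10D (0.98), RND3 (0.86), AMOTL2 (0.66) and EDC3 (0.61), higher in RANGAP1-AID cells on the log2 scale, and the SNORD22 gene ENSG00000278527 (-0.86). Of the 6 genes with the widest differences as labelled, CYP1A1 still passed. TIPARP (0.63, adjusted p = 0.0847 in edgeR's test), PRDM1 (1.55), MIR23AHG (-1.18), ENSG00000272141 (-0.89) and IER5L (-0.64) did not. The count of genes that differ from parental cells thus moves with the naming of the parental libraries, which was not settled here. PIM1 (0.02), JUN (-0.05), RND3 (-0.03), TNFRSF10D (0.03) and AMOTL2 (0.05) had log2 fold changes near 0 in DLD-1 cells under either naming.

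NUP153 is a nucleoporin of the nuclear basket, and its loss for the same 2 h asks which changes belong to the loss of a basket protein as well. Only 15 genes (0.0842%) differed between both losses, 13 of them higher after RANGAP1 loss, of which 11 are among the 78 rising genes. The rising genes were chosen from the RANGAP1-AID libraries of this comparison, which favours such differences. JUN had the largest difference, 1.74 ± 0.28 (adjusted p = 0.0303), with a log2 fold change of -0.29 after NUP153 loss. ENSG00000274021, opposite DUSP6 (1.52 ± 0.22), CYP1B1-AS1 (1.37 ± 0.22), LIF (1.33 ± 0.20), PARD6B (1.01 ± 0.14), PMAIP1 (1.00 ± 0.17), GADD45A (0.97 ± 0.14), MYLIP, a ubiquitin ligase (0.96 ± 0.13), TNFRSF10D, a decoy receptor for TRAIL (0.90 ± 0.12), RND3 (0.88 ± 0.14), ID2 (0.84 ± 0.15), F3 (0.75 ± 0.13) and TIPARP (0.68 ± 0.11) followed. ZNF830 (-0.93 ± 0.15) and ZFP62 (-0.64 ± 0.11), both zinc finger proteins, were lower. LIF, GADD45A, TNFRSF10D and RND3 had log2 fold changes between -0.03 and 0.06 after NUP153 loss. For CYP1A1 (1.23 ± 0.60) and PRDM1 (1.53 ± 0.31) the difference did not pass, which does not show that both losses act alike. With the replicate block 301 genes differed, while none passed in edgeR's test without RANGAP1-AID auxin replicate 2, RANGAP1-AID untreated replicate 2, NUP153-AID untreated replicate 1 or NUP153-AID auxin replicate 1 or 2, each left out in turn, with between 497 and 602 genes at an unadjusted p under 0.05. The count was also 3 without RANGAP1-AID untreated replicate 1, 7 without untreated replicate 3, 9 without auxin replicate 3, 6 without NUP153-AID untreated replicate 3 and 9 without its auxin replicate 3. DESeq2 gave 49.

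NXF1 is the export receptor of bulk mRNA, and its loss for 2 h addresses a general block of mRNA export. Here 1450 genes (8.14%) differed, 1237 of them higher after RANGAP1 loss, and 56 of the 78 rising genes were among those. As with NUP153 loss, the choice of the rising genes from the same RANGAP1-AID libraries favours such differences. CYP1A1 (3.26 ± 0.58), CHAC1, a glutathione-degrading enzyme of the stress response (2.46 ± 0.31), and PARD6B (2.34 ± 0.20) had the largest differences above 0. FOS had the largest below 0 (-3.14 ± 0.58, adjusted p = 0.00262): it fell by 0.89 after RANGAP1 loss and was at 2.26 on the log2 scale after NXF1 loss. ACP4 (-1.83 ± 0.21) and CNTF, a neurotrophic cytokine (-1.74 ± 0.24), had log2 fold changes near 0 after RANGAP1 loss (-0.10 and 0.01). With the replicate block 4314 genes differed.

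The libraries of the other degron lines entered the filter on low counts but not the calls. In all of these but NXF1 loss, the rising genes were above 0 more often than all tested genes. The DLD-1 libraries did enter the choice, since genes called in them were taken out, and there 7 of the 78 were above 0. In the degron lines the rising genes were above 0 for 66 of 78 after NUP153 loss, 64 after TPR loss and 70 after NUP50 loss. They were above 0 for 51 after GANP loss and 34 after NXF1 loss, beside between 46.1% and 52.3% of all genes. Their median log2 fold changes were 0.35, 0.30, 0.44, 0.37 and -0.10, under the 0.86 of RANGAP1 loss. The falling genes had medians of -0.18, -0.08, 0.07, -0.28 and -0.24. SNORD14D, the SNORD22 gene ENSG00000278527 and, among the rises, ENSG00000269926 were at exactly 0 after NUP153 and NUP50 loss, a value that genes without reads take. No test was made of these counts.

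**Figure D4:**
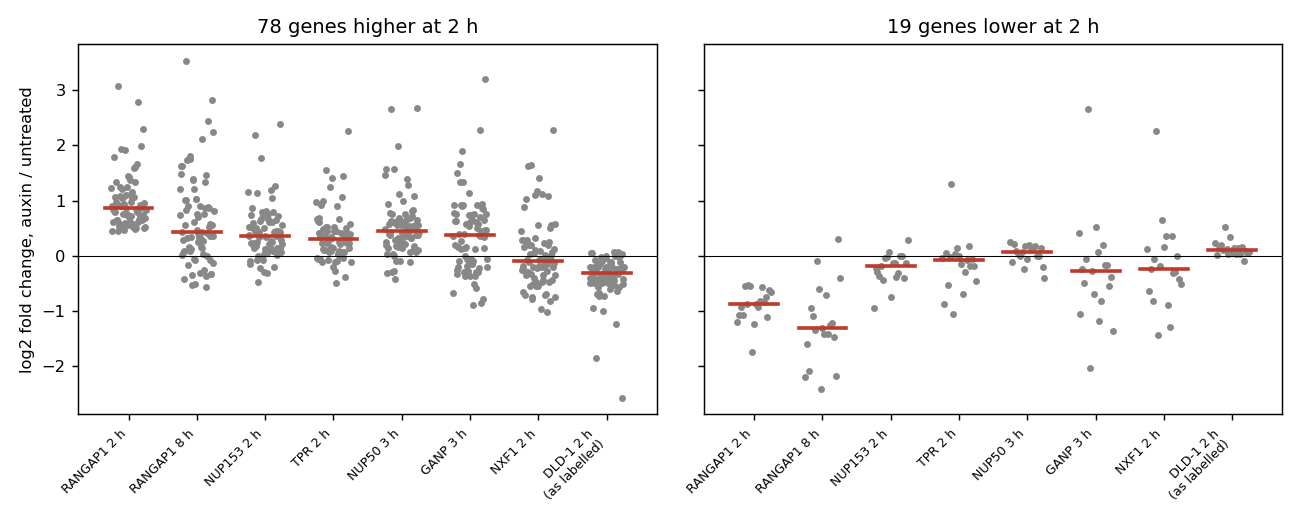
Log2 fold change, auxin against untreated (y axis), of the 78 rising genes (left) and the 19 falling genes (right) in 8 comparisons (x axis), with 1 point per gene and the median as a red line. RANGAP1 loss at 2 h chose the genes, without those called in DLD-1 cells, and the 8 h values share its untreated libraries. DLD-1 is drawn as labelled, where the median of the rising genes is -0.32.

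After 8 h of auxin many of the early rises had declined. Between 8 h and 2 h 2707 genes differed (15.2%), 1433 higher and 1274 lower at 8 h, and 6631 with the replicate block. The count was 1503 without auxin 2 h replicate 2 and 1455, 1219 and 1648 without 8 h replicate 1, 2 or 3. Of the 78 rising genes 44 were lower and 15 higher at 8 h than at 2 h, and of the 19 falling genes 8 were lower still and 2 higher. The 2 h libraries both chose the genes and enter this comparison, which favours a decline. Against the untreated libraries, the median of the rising genes on the log2 scale was 0.43 at 8 h, with 62 above 0, and the falling genes one of -1.31.

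The AHR genes parted with time. CYP1A1 was at 6.28 against untreated cells at 8 h and above its 2 h level by 0.40 ± 0.11, and CYP1B1 was at 2.57, while TIPARP came down to 0.30, below its 2 h level by 2.09 (-2.09 ± 0.08, adjusted p = 4.25e-07). PRDM1 had the deepest decline (-3.36 ± 0.18) and was at -0.58 against untreated cells. CCN1 (-0.42 at 8 h), DUSP6 (0.10), SPRY1 (-0.34), ID2 (-0.08) and SLC2A1 (-0.09) were near or under the untreated level, each with a passed decline. ATF3 (1.62) and JUN (1.03) stayed above it. RASSF1, a Ras-association tumour suppressor (2.45), TNFRSF10D (2.24), EREG (1.8), DDIT4 (1.74), PMAIP1 (1.47) and GADD45A (1.39) were higher at 8 h than at 2 h. The largest differences over all genes were TXNIP, an inhibitor of thioredoxin and glucose uptake (3.28 ± 0.20), ITPR1, a calcium release channel (2.00 ± 0.13), and RASSF1 (1.54 ± 0.08) above 0, and PRDM1, ENSG00000260035 (-2.13 ± 0.23) and TIPARP below. TXNIP, ITPR1 and ENSG00000260035 were not called at 2 h. The falls of SNORD99 (-2.19), SNHG12 (-1.26), SERTAD3 (-1.42) and RAB26 (-1.42) were deeper at 8 h, and that of IER5 was at -0.10.

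**Figure D5:**
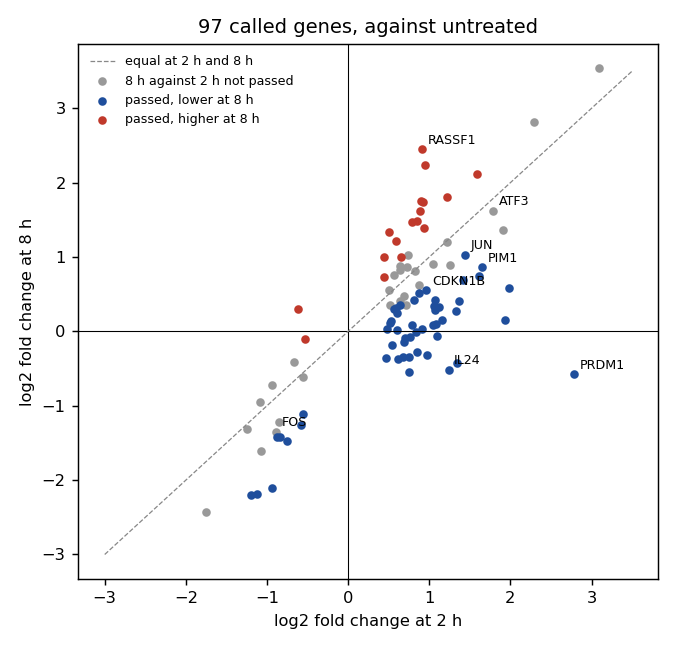
Log2 fold change against untreated RANGAP1-AID cells at 8 h (y axis) and at 2 h (x axis) of the 97 genes called at 2 h, with equal values on the dashed line. Blue and red points passed the comparison of 8 h with 2 h, lower and higher at 8 h, and PRDM1 lies furthest below the line.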

How the data were processed

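Total RNA depleted of ribosomal RNA was sequenced from paired ends with a stranded kit. The deposited values are raw read counts per gene, which the authors made with featureCounts (1.5.2) after aligning with STAR (2.6.1c) to GRCh38, as the submitters' processing notes have it, on Ensembl release 87. Of 58051 genes, 56948 matched GENCODE 44 by identifier. Genes with a CPM above 1 in at least 4 of the 60 libraries without ActD were tested (17812). Library totals over all 66 libraries ran from 18943661 to 55411411, and p-values cover the spread between libraries only.

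Counts were fitted with edgeR 4.0.16 (R 4.3.3, limma 3.58.1; TMM scaling, quasi-likelihood F test, Benjamini-Hochberg adjustment over all tested genes). The SE is the log2 fold change divided by the root of F. CPM use TMM-scaled totals. Lines and times were compared by interaction terms or contrasts in one model. DESeq2 1.42.0 and other scalings, filters and left-out libraries were alternatives. The fits were tested on simulated counts.

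Named genes are RANGAP1, RCC1 and RAN, the 15 largest rises and 10 largest falls without overlap between groups and averaging 50 counts or more, called members of the lists or else the 2 with the smallest p, the 3 largest differences each way per comparison, CYP1A1, CYP1B1, TIPARP and the genes the study names. SNHG12, IGFL1P1, CDKN1A, ERRFI1, AHRR, PMAIP1, MYLIP, TNFRSF10D and genes beside or over another called one were chosen after their values were seen. The members and lists were chosen with earlier results of these data known.

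Whether replicate numbers pair libraries was checked by correlating deviations from group means. Same-numbered untreated and auxin 2 h RANGAP1-AID libraries correlated at 0.66, 0.377 and 0.739, and differently numbered ones at most at -0.0785. The numbers come from the sample titles. NUP153-AID (0.53 to 0.706), AID-NXF1 (0.217 to 0.497) and RANGAP1-AID 2 h with 8 h (0.329 to 0.64) also paired, and DLD-1 did not (lowest 0.0634). A few members of the lists are not reported here.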

Additional observations from a re-analysis of the deposited data

Results flagged for a closer look

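The log2 fold changes of RANGAP1 loss for 2 h differed from those of another line or time by an interaction test or contrast. Against NUP153 loss 15 genes differed. Among the named ones the difference was 1.74 for JUN, 1.52 for ENSG00000274021, 1.37 for CYP1B1-AS1 and 0.684 for TIPARP, and it was -0.93 for ZNF830 and -0.64 for ZFP62.

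Against NXF1 loss 1450 genes differed. CYP1A1 (3.26), CHAC1 (2.46) and PARD6B (2.34) were higher after RANGAP1 loss, and FOS (-3.14), ACP4 (-1.83) and CNTF (-1.74) were lower.

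Against the DLD-1 libraries as labelled 159 genes differed. CYP1A1 (9.72), TIPARP (4.16) and PRDM1 (4.04) were higher, and IER5L (-1.37), MIR23AHG (-1.31) and ENSG00000272141 (-1.27) were lower. With the DLD-1 treatments named the other way round 13 genes differed, and of these 6 only CYP1A1 (2.03) passed, while TIPARP was at 0.63, PRDM1 at 1.55, IER5L at -0.64, MIR23AHG at -1.18 and ENSG00000272141 at -0.89.

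Between 8 h and 2 h of RANGAP1 loss 2707 genes differed. TXNIP (3.28), ITPR1 (2.00) and RASSF1 (1.54) were higher at 8 h, and PRDM1 (-3.36), ENSG00000260035 (-2.13) and TIPARP (-2.09) were lower.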

How the results depend on the processing

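All 97 called genes had the same sign under every alternative fitted, and all 97 remained called with DESeq2, RLE scaling, no filter on low counts, the 9-library fit and the replicate block. They were 96 with filterByExpr and 85 with library totals alone. The count of called genes was 342 without a filter on low counts, 176 with DESeq2 and 162 in the fit over 9 RANGAP1-AID libraries. The difference from NUP153 loss passed for 96 genes without the filter and 49 with DESeq2, and that from DLD-1 for 391 and 264, or 13 with the DLD-1 treatments named the other way round. With the replicate block, in which the pairing enters the fit, the counts were 427 called genes, 301 for NUP153, 4314 for NXF1, 1163 for DLD-1 and 6631 for 8 h against 2 h. The causes were not tested.

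Leaving out each library in turn gave 33 to 88 called genes, 0 to 14 for NUP153, 997 to 1535 for NXF1, 102 to 159 for DLD-1 and 1219 to 3043 for 8 h against 2 h. The called genes were 29 to 75 higher and 0 to 13 lower. Of the 97 genes, between 33 and 75 were still called. Among single genes, none of them called, the sign turned in these fits, except for HSPA1B. The log2 fold change of RANGAP1 ran from -0.0844 to 0.00455, the log2 fold change of RAN ran from -0.00562 to 0.133 and the log2 fold change of EGR1 ran from -0.256 to 0.318. The log2 fold change of NUTF2 ran from -0.0300 to 0.175, the log2 fold change of HSPA1B, which has 1 read in the 6 libraries and turned only to 0 without it, ran from 0 to 2.35 and the log2 fold change of COL1A1 ran from -0.852 to 0.558. The log2 fold change of CD68 ran from -0.0605 to 0.0808, the log2 fold change of CNTF ran from -0.0728 to 0.0744 and the log2 fold change of ENSG00000260035 ran from -0.0880 to 0.263. It also turned for CD68 without a filter (0.0062) and with filterByExpr (0.00011) and for CNTF with library totals alone (-0.027). The median log2 fold change of all genes was 0.0017, and -0.031 with library totals alone, which lay furthest from it among the alternatives. Genes with few reads, such as CYP1A2, are limited by depth.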
